A study of Mus musculus with 56 samples.

Results

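Large clones are the T cells of mouse liver tumours that share 1 rearranged T cell receptor (TCR) beta chain with at least 4 other T cells of the same library. Barcodes called cells counted as T cells when they had a productive, high-confidence TRB contig, and the clonotype was the V gene, J gene and CDR3 base sequence of the TRB contig with the most UMIs. Clones of 5 or more T cells were called large. They held 2248 of the 7605 T cells, in 140 clones spread over 13 of the 15 TCR libraries, against 5357 T cells in 4865 clones of 1 to 4. Clones were counted by library, so a clonotype large in more than 1 library counts in each, and the 140 were 129 distinct clonotypes. Membership rests on clone size alone, so sizes are described here and not tested.

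All tumours are labelled hepatocellular carcinoma and carry MYC. The labels add either luc, a luciferase construct, or lucOS, the same luciferase joined to model T cell antigens, and either NICD, the active intracellular part of NOTCH1, or sgp53, a guide RNA targeting p53, a tumour suppressor. Females gave 3 libraries of luc NICD, 3 of luc sgp53, 3 of lucOS NICD and 4 of lucOS sgp53, and males gave 2 of lucOS NICD. Replicates 3 and 4 of female lucOS sgp53 carry the same number in their titles with the marks T1 and T2 and were treated as 1 animal, which leaves 14 animals. The genotype of luc NICD female replicate 2 is written as MycLucNICD and was read as luc NICD. Every other title has a number of its own, but no label states that libraries are separate animals, so a p-value measures the spread between these libraries. The labels give no age, and what limits the model is that nodules were picked by eye, dissociated, and CD45 positive cells were put back with the other cells in equal numbers, which sets the share of immune cells by hand.

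T cell numbers ran from 49 to 1282 per library. The TRB contig rested on 6 to 14 UMIs at the median, and 66.2 to 87.7% of T cells had a productive TRA contig. Luc NICD replicates 2 and 3 were the smallest, with 77 and 49 T cells. Of the T cell barcodes, 39 occurred in more than 1 library. A shared barcode carried the same TRB in 1 case, and none of these T cells was in a large clone. A TRB contig in a called cell is the only evidence used here for a T cell, and no gene expression was read.

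A TRB chain is made by joining a V, a D and a J segment, with bases trimmed and added at random where they meet. The joined stretch, the CDR3, is the part of the chain that touches the peptide most directly, and T cells that share its exact bases usually descend from 1 parent cell. A TRA chain pairs with it to form the receptor. When T cells meet their antigen they divide, so a clone seen many times in a tumour is a record of past division, and receptors that recur in different animals are called public. T cells with invariant receptors are an exception, because many separate cells make nearly the same TRA: natural killer T cells join TRAV11 to TRAJ18 and mucosal-associated invariant T cells join TRAV1 to TRAJ33.

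The sequences below are those on which the description turns, because most sets show 1 CDR3 protein written with different bases, or the same bases in different animals, and the last shows the largest clones. All are CDR3 base sequences as deposited, 5′ to 3′, from the codon of the first conserved residue to that of the last. In the first set, 3 TRBV14 and TRBJ2-7 rearrangements encoded the same CDR3 residues in 3 lucOS animals, and capitals mark the 3 positions at which their bases differ.
lucOS sgp53 female 1, 97 T cells: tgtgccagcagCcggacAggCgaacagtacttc
lucOS sgp53 female 3 and 4, 51 T cells in each: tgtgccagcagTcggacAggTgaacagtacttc
lucOS NICD female 2, 2 T cells: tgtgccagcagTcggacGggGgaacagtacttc
The TRA chains that led these clones also shared their residues, all from TRAV10-family segments joined to TRAJ16, with 1 differing position.
lucOS sgp53 female 1 TRA: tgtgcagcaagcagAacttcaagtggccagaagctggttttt
lucOS sgp53 female 3 and 4 and lucOS NICD female 2 TRA: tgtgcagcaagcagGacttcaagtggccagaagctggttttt

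The next clonotype joined TRBV12-2+TRBV13-2 to TRBJ2-7 and was found base for base in 4 lucOS animals. Capitals mark the bases that match neither the V nor the J end shared by most CDR3s of those genes.
lucOS NICD male 1 and 3 other lucOS animals: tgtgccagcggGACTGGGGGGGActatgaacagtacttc
In the animal of lucOS sgp53 replicates 3 and 4, 1 CDR3 protein of TRBV12-2+TRBV13-2 and TRBJ2-5 was written in 3 ways, again with differing positions in capitals. The counts of T cells are those of replicate 3 and then replicate 4.
44 and 2 T cells: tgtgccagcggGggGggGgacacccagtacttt
35 and 74 T cells: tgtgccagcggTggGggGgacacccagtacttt
9 and 40 T cells: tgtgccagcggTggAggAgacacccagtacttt
A receptor of TRBV12-2+TRBV13-2 and TRBJ2-7 was large with a different base sequence in each of the 3 female lucOS sgp53 animals.
lucOS sgp53 female 2, 44 T cells: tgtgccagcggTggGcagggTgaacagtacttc
lucOS sgp53 female 4, 27 T cells: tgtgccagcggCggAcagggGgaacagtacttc
lucOS sgp53 female 1, 21 T cells: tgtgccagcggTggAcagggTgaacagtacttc
The TRBV29 and TRBJ1-4 receptor joined a luc and 2 lucOS animals by residues, with 3 differing positions.
lucOS sgp53 female 3, 23 T cells: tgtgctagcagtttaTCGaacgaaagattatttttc
luc sgp53 female 1, 2 T cells: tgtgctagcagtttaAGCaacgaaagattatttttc
In lucOS NICD male 2, 4 large clones of TRBV3 and TRBJ2-5 had CDR3s of the same length and TRA chains of the TRAV4 family. The clones of 20, 11 and 6 T cells encoded the same residues, and that of 26 did not.
26 T cells: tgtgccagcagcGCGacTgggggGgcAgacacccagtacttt
20 T cells: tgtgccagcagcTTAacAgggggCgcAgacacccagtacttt
11 T cells: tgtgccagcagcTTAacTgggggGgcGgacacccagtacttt
6 T cells: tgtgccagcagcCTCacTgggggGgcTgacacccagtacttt
The last set holds the largest lucOS clone and the largest luc clone, whose CDR3 residues were written with 1 base sequence each, and capitals mark the bases outside the V and J ends.
lucOS sgp53 female 2, TRBV12-1 and TRBJ2-7, 127 T cells: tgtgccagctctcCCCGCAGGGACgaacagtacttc
luc sgp53 female 1, TRBV17 and TRBJ2-2, 31 T cells: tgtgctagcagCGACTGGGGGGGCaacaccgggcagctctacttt

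Large clones were mostly found in lucOS tumours. The 9 lucOS libraries held 127 of the 140, with 2111 of 5501 T cells (38.4%), and the 6 luc libraries held 13, with 137 of 2104 T cells (6.51%). All 8 lucOS animals had at least 2 large clones, and 2 of the 6 luc animals had none. Of the 35 clones of 20 or more T cells, 33 were in lucOS libraries, as were all 7 clones of 50 or more.

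In luc NICD females, 0 of 286, 0 of 77 and 7 of 49 T cells were in large clones. For the 0 of 286 the 95% Wilson interval reaches 1.33%, counting T cells 1 by 1, and the largest clone of that library had 4 T cells. The 7 T cells of replicate 3 formed 1 clone of TRBV19 and TRBJ2-7. In luc sgp53 females the numbers were 73 of 402 (18.2%), 27 of 599 (4.51%) and 30 of 691 (4.34%). Replicate 1 was the luc library with the most large clones, 7, and its 31 T cells of TRBV17 and TRBJ2-2 were the largest luc clone.

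The lucOS NICD females gave 112 of 432 T cells (25.9%), 12 of 151 (7.95%) and 104 of 268 (38.8%). In replicate 3, 60 of the 104 belonged to 1 clone, so a single receptor made up 22.4% of its T cells. The lucOS sgp53 females gave 327 of 1282 (25.5%) and 486 of 828 (58.7%), and the pair of libraries from 1 animal gave 302 of 706 (42.8%) and 295 of 644 (45.8%). The lucOS NICD males gave 273 of 557 (49.01%) and 200 of 633 (31.6%).

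The largest clone of each library with large clones came from a range of TRBV entries. In the luc libraries these were the TRBV17 clone of 31 T cells, led by TRAV7-5 with TRAJ33 in 30 of 30 T cells with a TRA, a TRBV12-2 and TRBJ2-7 clone of 24 in luc sgp53 female 3, the TRBV3 and TRBJ1-1 clone of 15 in female 2, and the TRBV19 clone of 7. In the lucOS NICD libraries they were a TRBV16 and TRBJ2-7 clone of 42 in female 1, a TRBV13-1 and TRBJ2-1 clone of 7 in female 2, the TRBV12-2+TRBV13-2 and TRBJ2-7 clone of 60 in female 3, a TRBV12-2+TRBV13-2 and TRBJ1-6 clone of 47 in male 1 and the TRBV3 and TRBJ2-5 clone of 26 in male 2. In the lucOS sgp53 libraries they were the TRBV14 clones of 97 and 51 in replicates 1 and 3, the TRBV12-1 clone of 127 in replicate 2, led by TRAV9D-3 with TRAJ17 in 85 of 85, and the TRBV12-2+TRBV13-2 and TRBJ2-5 clone of 74 in replicate 4. No V gene led in every group, and the same TRBV14 receptor was the largest in replicates 1 and 3 of lucOS sgp53.

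The other clones of 20 or more T cells were mostly in the same libraries. In lucOS sgp53 female 1 a TRBV13-3 and TRBJ1-3 clone had 58 T cells, led by TRAV14-1 with TRAJ33 in 50 of the 50 with a TRA. In lucOS sgp53 female 2 there were a TRBV16 and TRBJ2-5 clone of 45, a TRBV1 and TRBJ2-7 clone of 25, and TRBV12-2+TRBV13-2 clones of 44, 43, 22 and 21. In lucOS NICD male 1 there were a TRBV17 and TRBJ2-5 clone of 35, led by TRAV16N with TRAJ7 in 28 of 29, a TRBV19 and TRBJ1-4 clone of 28, a TRBV13-3 and TRBJ1-4 clone of 24, and TRBV12-2+TRBV13-2 clones of 32, 20 and 20. A TRBV13-3 and TRBJ2-2 clone of 23 was in lucOS NICD female 1. Those of lucOS sgp53 replicates 3 and 4 are given with the pair of libraries.

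**Figure D1:**
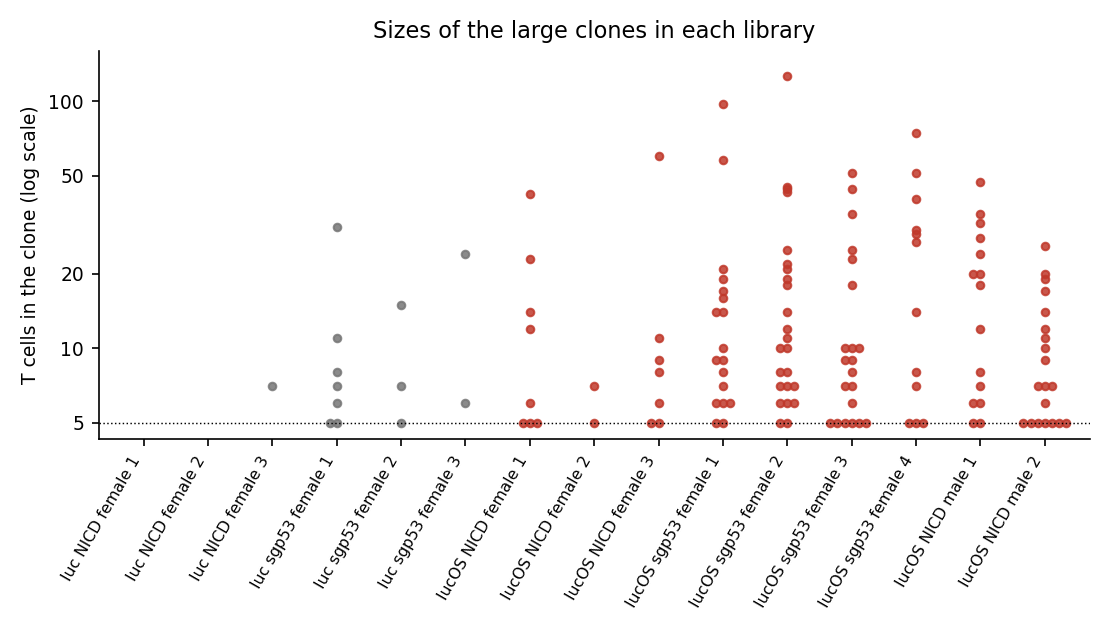
Each point is 1 large clone, with its number of T cells on a log axis, by library, luc in grey and lucOS in red, and the dotted line marks 5 T cells. The largest clones of the luc libraries reached 31, 24, 15 and 7 T cells, and those of the lucOS sgp53 libraries 51 to 127.

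Because 5 T cells are easier to reach in a larger library, each library was brought to 151 T cells by the exact expectation of drawing that many, and the 2 libraries under 100 were left out. The expected share in large clones was then 0% in luc NICD female 1 and 10.1, 1.25 and 2.69% in the luc sgp53 females. It was 18.97, 7.95 and 31.6% in the lucOS NICD females, 12.7, 38.1 and 32.0% in the lucOS sgp53 animals, and 38.1 and 11.4% in the males. Only the highest luc animal, at 10.1%, lay above any lucOS animal, the lowest, at 7.95%.

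Within females and averaged over NICD and sgp53, the lucOS animals were 21.2 percentage points above the luc animals (exact permutation test over 10 animals within NICD and sgp53, two-sided, p = 0.0375, where the smallest possible p is 0.0125). After adjustment over the 4 genotype comparisons the p was 0.15, so the difference did not pass. Without thinning and with all libraries kept it was 26.6 points with an adjusted p of 0.04 by the same exact test, in a comparison that favours deeper libraries. Thinned to the smallest library of 49 T cells with all libraries kept, it was 8.07 points (exact permutation p = 0.11, adjusted p = 0.44, 12 animals). With large meaning 10 or more T cells it was 12.2 points (exact permutation p = 0.0875, adjusted p = 0.35). The size of the difference therefore depended on the number of T cells compared. The difference was 22.9 points within sgp53, where 3 animals against 3 cannot go below an exact p of 0.1, which it reached. Within NICD it was 19.5 points, with 1 luc animal left. The antigen difference in NICD was 3.41 points below that in sgp53 (exact permutation p = 0.887), which at this number of animals shows no more than that the test did not separate them.

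NICD animals were 6.39 points below sgp53 animals (exact permutation p = 0.263, adjusted p = 0.525, n = 10). The 2 male lucOS NICD animals averaged 24.8% and the 3 females 19.5% (exact permutation p = 0.7, smallest possible p 0.1, n = 5). The male values, 11.4 and 38.1%, spanned the female values apart from the lowest. Neither difference was larger than the spread between animals, and the male difference changed sign when lucOS NICD female 2 or male 1 was left out, to -0.52 and -8.11 points.

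**Figure D2:**
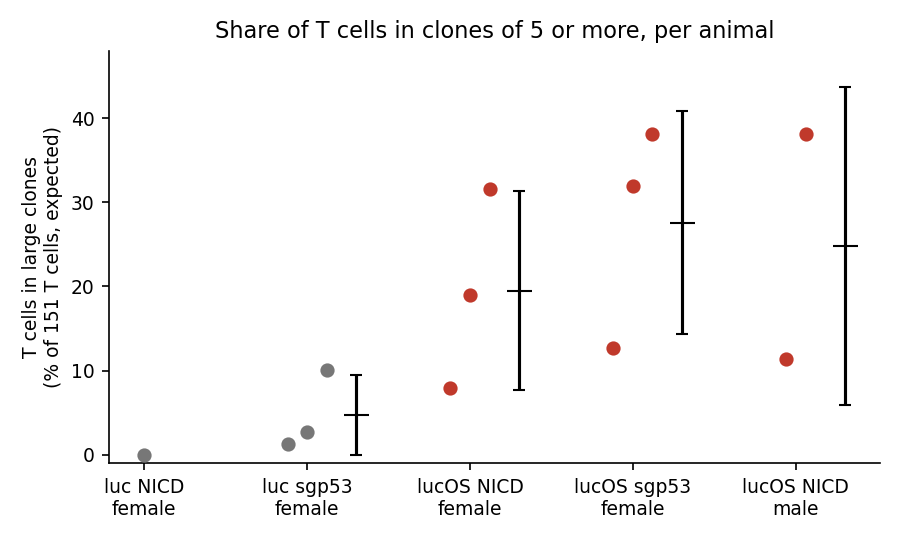
Points are animals, with the expected percent of 151 T cells in large clones, by group, luc in grey and lucOS in red, and bars give the mean and SD where a group has more than 1 animal. The luc animals sit between 0 and 10.1% and the lucOS animals between 7.95 and 38.1%.

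V gene use of the large clones was led by 1 entry. TRBV12-2+TRBV13-2, an entry that names neighbouring V segments (TRBV12-2 at chromosome 6, 41118864 to 41119364, and TRBV13-2 at chromosome 6, 41121396 to 41121832, RefSeq GRCm38.p6), held 39 of the 140 large clones and 793 of their 2248 T cells. In 37 of the 39 large clones, and in 545 of the 552 smaller clones of this entry, the first 10 bases were those of CDR3s of TRBV13-2, and in 1 of each they were those of TRBV12-2. All 39 clones were in lucOS animals. There it made up 30.7% of the 127 large clones and 11.2% of the clones of 1 to 4, whereas in luc animals it made up none of the 13 large clones and 11.5% of the clones of 1 to 4.

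By animal, its share of the large clonotypes of the lucOS NICD females was 12.5, 50 and 14.3%, of the lucOS sgp53 animals 22.2, 45.8 and 28%, and of the males 40 and 20%. In the clones of 1 to 4 of the same animals it ranged from 10.0 to 15.8%. The share in large clones was the higher one in 8 of 8 lucOS animals and the lower one in 4 of 4 luc animals. In the lucOS NICD females this rested on 1 clone of the entry each, among 8, 2 and 7 large clonotypes. The luc animals had 1, 7, 3 and 2 large clonotypes. At such numbers 1 clone, or none, sets the direction, so the count of animals is not evidence of a difference by antigen. Over all 12 animals with large clones it averaged 20.1% of large and 11.2% of smaller clones, and the difference did not pass (exact sign-flip permutation test over animals, adjusted p = 0.277 over 20 entries).

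TRBV3 (chromosome 6, 41048394 to 41048824) followed with 15 large clones, 12 of them in lucOS and 3 in luc animals. It averaged 12.2% of large and 7.45% of smaller clones, lower in large clones in 7 of 12 animals. TRBV14 (chromosome 6, 41135167 to 41135616) led 11 large clones, and averaged 12.2% of large against 2.59% of smaller clones, higher in 8 of 12 animals (exact sign-flip permutation adjusted p = 0.0935). It was the entry of 3 of the 13 luc and 8 of the 127 lucOS large clones. TRBV13-3 led 9 large clones, TRBV12-1 and TRBV13-1 and TRBV19 led 7 each, and TRBV12-1 included the clone of 127 T cells. In large and then smaller clones, TRBV13-3 averaged 5.96 and 7.51%, TRBV12-1 4.10 and 4.61%, TRBV13-1 7.25 and 6.89% and TRBV19 10.5 and 7.81%. In the same order, the share was lower in large clones in 9, 7, 9 and 10 of 12 animals.

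The exact sign-flip permutation test called 5 of 20 TRBV entries at an adjusted p under 0.05, or 25%, all lower in large clones: TRBV13-2, TRBV1, TRBV26, TRBV10 and TRBV29. These held 0, 2, 2, 3 and 4 large clones. A gene rare enough to be missing from an animal with a handful of large clones counts there as lower. On data simulated with no difference the test called TRBV entries too often, and whether these were the rare ones, or lower, was not recorded. In the 8 animals whose libraries had at least 7 large clones, a limit set after seeing the data, it called 0 of 20, with 3 at an unadjusted p under 0.05. With 8 animals the smallest exact p is 0.00781, so a lone gene among 20 could not have passed there. The differences in those 8 animals and in all 12 were -1.75 and -1.87 points for TRBV13-2, -4.71 and -5.98 for TRBV1 and -1.72 and -2.10 for TRBV26. The 8 are part of the 12, so the values are not independent. The calls are given with these limits and not described as changes. TRBV13-2 is an entry beside TRBV12-2+TRBV13-2, and 13 of its 84 T cells had the J gene and CDR3 bases of a large TRBV12-2+TRBV13-2 clone of their library.

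J genes of the second cluster were more common in large clones when clones of all animals were pooled. TRBJ2 genes were in 112 of the 140 large clones (80%) and in 67.3% of smaller clones, with no test made. By animal, no single TRBJ2 gene was higher in large clones in more than 6 of 12 animals. TRBJ2-7 (chromosome 6, 41543810 to 41543856) led with 46 large clones, followed by TRBJ2-5 with 30 and TRBJ2-1 with 17, and TRBJ1-1 and TRBJ2-2 had 8 each. Over 12 animals TRBJ2-5 averaged 17.6% of large and 12.2% of smaller clones, and TRBJ2-1 17.4 and 13.2%. For TRBJ1-1 the shares were 7.42 and 10.2%, and for TRBJ2-2 5.07 and 4.96%. TRBJ2-7 was in 55.6, 54.2 and 44% of the large clonotypes of the lucOS sgp53 animals, but in 12.5, 50 and 14.3% in the lucOS NICD females and 13.3 and 10% in the males. Its mean over 12 animals was 34.6% in large and 19.1% in smaller clones, higher in 6 and lower in 6 (exact sign-flip permutation adjusted p = 0.286). Of 12 TRBJ genes 1 was called, or 8.33%, TRBJ2-3, at 1.84% of large and 9.003% of smaller clones (exact sign-flip permutation adjusted p = 0.0117). TRBJ2-3 led 5 large clones. In the 8 animals with more large clones its difference was -6.19 points, lower in 7 of 8 (exact sign-flip permutation p = 0.0156, adjusted p = 0.188), against -7.16 in all 12, and a lone gene among 12 could not have passed with 8 animals.

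**Figure D3:**
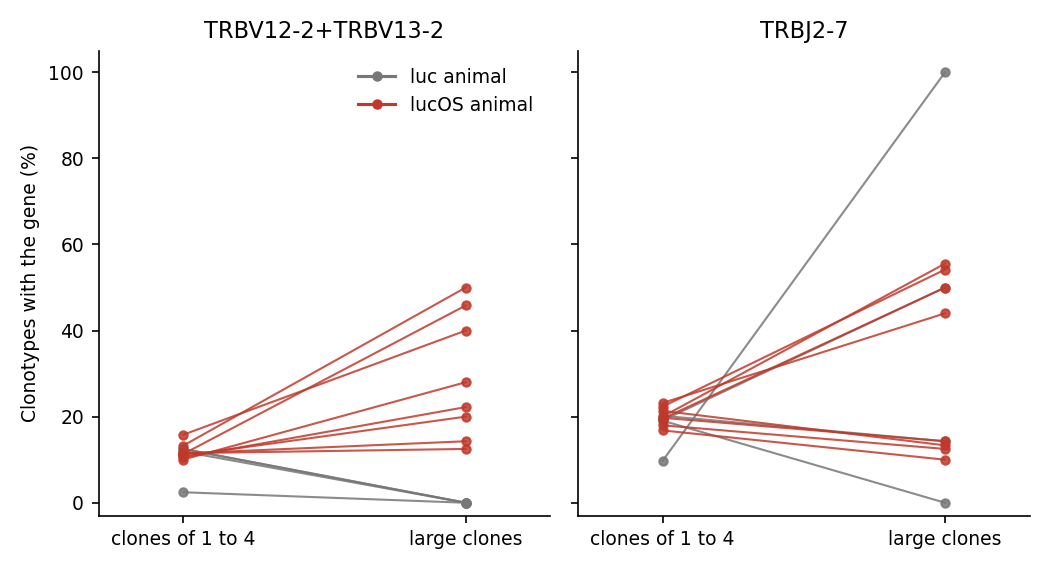
Each line is 1 animal and joins the percent of its clones of 1 to 4 with the percent of its large clonotypes that used TRBV12-2+TRBV13-2 (left) or TRBJ2-7 (right), luc in grey and lucOS in red. For TRBV12-2+TRBV13-2 all 8 lucOS lines go up and all 4 luc lines go down to 0, and the luc line at 100% for TRBJ2-7 is an animal with 1 large clone. The luc animals had 1 to 7 large clonotypes, and each lucOS NICD female had 1 of TRBV12-2+TRBV13-2, so these directions rest on few clones.

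V and J genes were combined in 74 ways. TRBV12-2+TRBV13-2 with TRBJ2-7 was the most common pair, with 18 large clones and 336 T cells in 7 of the 8 lucOS animals, or 12.9% of large and 2.38% of smaller clones. TRBV12-2+TRBV13-2 with TRBJ2-5 gave 8 large clones and 253 T cells in 2 animals. TRBV14 with TRBJ2-7 gave 5 large clones but 221 T cells, most of them in the clones of 97, 51 and 51 printed above.

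CDR3s of large clones were shorter on average. The mean over 12 animals was 13.3 ± 0.75 residues (SD) in large clones and 13.9 ± 0.17 in clones of 1 to 4, lower in 8 animals and higher in 4. The difference of -0.59 residues had p = 0.0186 by the exact sign-flip permutation test and an adjusted p of 0.0557 over 6 measures, so it just missed. It passed at an adjusted p of 0.019 when clonotypes were defined by residues (-0.68, exact sign-flip permutation). It also passed without luc sgp53 female 1, luc sgp53 female 2 or lucOS NICD female 1 (exact sign-flip permutation adjusted p = 0.0439, 0.041 and 0.0469). In each of these animals the large clones had the longer CDR3s on average, so leaving it out favours the difference. It did not pass at the other settings or without any other single animal. With TRB contigs of at least 3 UMIs it was -0.62 residues (exact sign-flip permutation adjusted p = 0.0908, n = 11).

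Lengths of 11 residues stood out, with 30 of 140 large clones (21.4%) against 4.97% of the clones of 1 to 4. The counts of large clones repeat those large in both libraries of 1 animal. Short CDR3s were not particular to large clones. Lengths of 11 or fewer were found in 23.6% of large clones and in 24.3% of the 37 clones of 4. They were found in 5.98% of the 4529 single T cells, which make up most of the clones of 1 to 4. All 33 large clones of 11 residues or fewer were in lucOS animals, 25.98% of the large clones there. The 13 luc large clones averaged 14.0 residues and the luc clones of 1 to 4 also 14.0, and the lucOS large clones averaged 13.02 against 13.8. The large minus smaller difference averaged -0.16 residues in 4 luc and -0.80 in 8 lucOS animals, and the test of luc against lucOS did not separate them (exact permutation p = 0.154, adjusted p = 0.236 over 6 measures).

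Of the 33 large clones of 11 residues or fewer, 21 were of TRBV12-2+TRBV13-2. Its 39 large clones averaged 11.9 residues, and 21 of them had 11 or fewer (53.8%), against 13.8 residues and 11.2% in its 339 smaller lucOS clones. Of its 18 clones with TRBJ2-7, 11 had 11 residues, as had 7 of the 8 with TRBJ2-5. Those 7 were all in the animal of lucOS sgp53 replicates 3 and 4, where a clone large in both libraries counts in each. The other lucOS large clones averaged 13.5 residues and the other smaller lucOS clones 13.8. With this entry kept, the pooled lucOS averages were 13.02 residues in large and 13.8 in smaller clones. With it left out the difference over 12 animals was -0.41 residues (exact sign-flip permutation p = 0.167), against -0.59 with it. The 4 luc animals among the 12 had no large clone of this entry, so their large clones stayed the same. How much of the difference came from this entry was not tested.

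Bases that matched neither the V nor the J end did not account for a uniform difference. They numbered 9.89 ± 1.66 (SD) in large and 9.64 ± 0.30 in smaller clones over 12 animals, with 7 animals higher and 5 lower (exact sign-flip permutation p = 0.644). The D segment is counted among these bases. The sign of this small difference turned when large meant 10 or more T cells, to -0.63, and when luc sgp53 female 2 was left out, to -0.08.

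**Figure D4:**
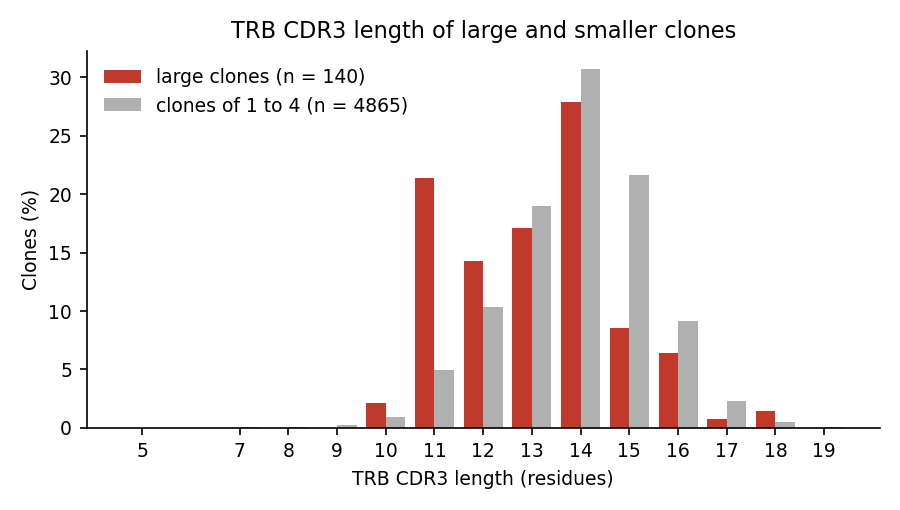
Bars give the percent of large clones (red, n = 140) and of clones of 1 to 4 T cells (grey, n = 4865) at each TRB CDR3 length in residues. The large clones have an extra peak at 11 residues, 21.4% against 4.97%, and fewer at 15, 8.57% against 21.6%.

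Pairing with TRA was close to uniform within a large clone. Of the 2248 T cells 1868 had a productive TRA, and 1766 of these (94.5%) had the TRA that led their clone. In 103 of the 139 large clones with at least 2 such T cells, every T cell had the same leading TRA. Joining T cells by any TRA they shared left 1 lineage in 125 clones, and 3 clones held 2 lineages of 2 or more T cells. One large clone, of TRBV13-3 and TRBJ2-7 with 5 T cells in lucOS sgp53 female 3, had no TRA.

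The clones whose second lineage had 2 or more T cells were as follows. The clone of 43 T cells of TRBV12-2+TRBV13-2 and TRBJ1-5 in lucOS sgp53 female 2 split into 33 and 4 T cells by TRA bases. In that library 4 T cells had the residues of its leading TRA written with other bases, so these lineages may share a TRA protein. The clone of 20 T cells of TRBV3 and TRBJ2-5 in lucOS NICD male 2 split into 16 and 2. The smallest was a clone of 5 T cells of TRBV12-2+TRBV13-2 and TRBJ1-2 in lucOS NICD male 1, split into 3 and 2.

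Averaged over clones and then over 12 animals, 2 T cells of a large clone had the same leading TRA in 92.5 ± 6.34% of pairs (SD), and 2 T cells of a clone of 2 to 4 in 89.2 ± 7.83% (exact sign-flip permutation p = 0.202, adjusted p = 0.243). With any shared TRA counted, the difference fell from 3.27 to 0.24 points. Any 2 T cells of the same library agreed in 0 to 8.04% of pairs. A productive TRA was found in 82.7 ± 7.62% of T cells in large clones and 76.6 ± 7.04% of the others, higher in 9 of 12 animals (exact sign-flip permutation p = 0.0693, adjusted p = 0.104).

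Receptor depth did differ. The median TRB contig had 14.5 ± 6.11 UMIs (SD over 12 animals) in T cells of large clones and 8.29 ± 1.86 in the others, higher in 10 animals and lower in luc NICD female 3 and luc sgp53 female 2 (exact sign-flip permutation p = 0.00342, adjusted p = 0.0205). In lucOS NICD female 1 the medians were 27 and 7. The part of receptor depth in the TRA share and in TRA agreement was not tested.

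A second productive TRA was about as common in large clones, at 9.12% of T cells, as in clones of 1 to 4, at 8.29%, with no test made. Within large clones these T cells were mostly in a few. In 10 large clones at least 5 T cells had 2 or more TRA, and these clones held 172 of the 205 T cells of large clones with 2 or more TRA. The clone of 44 T cells in lucOS sgp53 female 3 had TRAV1 with TRAJ32 in 39 and TRAV14N-3 with TRAJ22 in 38 of the 43 T cells with TRA, and both in 34. The clone of 25 T cells of TRBV12-1 and TRBJ2-2 in the same library had TRAV3-3 with TRAJ11 in 22 and TRAV5-4 with TRAJ15 in 22 of 23, and both in 21, and the same pair recurred in its 14 T cells in replicate 4, where 10 of 13 had both. In lucOS NICD male 1 the clone of 20 T cells shown above had TRAV14D-2 with TRAJ6 in 19 and TRAV7D-2 with TRAJ9 in 19, and both in 18. T cells with 2 or more TRA were 27.2 and 20% of the T cells in large clones of lucOS sgp53 replicates 3 and 4, and 0 to 8.42% in the other libraries with large clones.

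None of the large clones was led by an invariant TRA. TRAV11 or TRAV11D with TRAJ18 was the leading TRA of 127 T cells and TRAV1 with TRAJ33 of 128. Of the 1868 T cells of large clones with a TRA, 0 had either, which allows a share of up to 0.161% counting T cells 1 by 1. These T cells lie in 139 clones and mostly share the TRA of their clone, so the limit for clones is wider. Among the other T cells with a TRA the shares were 3.04 and 3.06%. The rule itself works against them, since it asks for identical TRB bases and these receptors vary in TRB. The TRAV subgroups leading the most large clones were TRAV14 with 18, TRAV9 with 17 and TRAV16 with 15. These were 12.9, 12.2 and 10.8% of large clones, against 9.90, 8.66 and 5.36% of T cells with a TRA in clones of 1 to 4. No test was made of these shares. V segments of the TRA locus exist in near-identical copies, marked D or N in their names, so TRAV names are compared by subgroup in these shares and between animals. Within a clone, a leading TRA counted as the same only with the same full TRAV name, TRAJ gene and CDR3 bases. Lineages were joined by TRAJ gene and CDR3 bases.

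Receptors of large clones recurred between animals. Base for base, 13 of the 140 large clones (9.29%) were found in another animal, against 57 of the 4865 clones of 1 to 4 (1.17%). Averaged over 12 animals the shares were 8.68 ± 14.6% and 1.32 ± 0.94% (SD), higher in 5 animals and lower in 6 (exact sign-flip permutation p = 0.0625, adjusted p = 0.104). Without lucOS NICD female 2, where 1 of 2 large clones recurred, the difference was 3.63 points in place of 7.36. By residues 29 large clones (20.7%) and 3.70% of the others were found elsewhere, and with clonotypes defined that way the difference was 16.99 points and passed (exact sign-flip permutation adjusted p = 0.041). A clone of any size counts as found from 1 T cell in another animal.

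The 13 clones were 9 clonotypes, 5 of which used TRBV12-2+TRBV13-2, and 7 of the 9 were seen in lucOS animals alone. A luc animal held 2 of the 13 large clones, and 11 of the 42 lucOS clones of 1 to 4 that recurred base for base. More lucOS than luc T cells were searched, and these shares were not tested. The clonotype of TRBV12-2+TRBV13-2 and TRBJ2-7 printed above had 5 T cells in lucOS NICD female 2, 1 in female 3, 20 in male 1, and 18 and 30 in lucOS sgp53 replicates 3 and 4. All 5, 16 and 27 T cells with a TRA in lucOS NICD female 2 and lucOS sgp53 replicates 3 and 4 had a TRAV14-family chain with TRAJ6, as had the 1 T cell of female 3, and in male 1 it was 1 of the pair of TRA chains held together. The clonotype of TRBV12-2+TRBV13-2 and TRBJ1-5 had 43 T cells in lucOS sgp53 female 2 and 1 in each of 4 other lucOS libraries, and TRAV8-1 with TRAJ30 was the leading TRA wherever a TRA was found.

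Some large receptors joined lucOS and luc animals. The clonotype of TRBV1 and TRBJ1-2 had 7 T cells in lucOS sgp53 female 2, and 4 and 1 in luc sgp53 females 1 and 2, in each case with a TRAV5-family chain and TRAJ44. The clonotype of TRBV29 and TRBJ1-4 had 23 and 2 T cells in lucOS sgp53 replicates 3 and 4 and 2 in female 2. A version of it with other bases but the same residues had 2 T cells in luc sgp53 female 1, and TRAV12-2 with TRAJ30 led in all of these. The largest clone of luc sgp53 female 2, 15 T cells of TRBV3 and TRBJ1-1 led by TRAV6-6 with TRAJ22, had the residues of 2 and 1 T cells in lucOS sgp53 replicates 3 and 4, with the same TRA genes.

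A shared TRB did not always come with a shared TRA. The clonotype of TRBV13-1 and TRBJ2-3 had 12 T cells in lucOS sgp53 female 2, led by TRAV7-6 with TRAJ56, and 1 T cell in luc sgp53 female 1 with TRAV4D-4 and TRAJ50. One of TRBV12-2+TRBV13-2 and TRBJ2-7 had 9 T cells in lucOS sgp53 female 1, led by TRAV9-2 with TRAJ39, and 4 and 5 in replicates 3 and 4, led by TRAV9N-4 with TRAJ26. In both cases the bases of the TRB CDR3 were identical and the TRA was not.

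With TRB and leading TRA both matched by residues, 16 of 139 large clones (11.5%) were found in another animal, against 1.33% of the 3846 smaller clones with a TRA. All 16 had a match in a lucOS animal, and 2 had one in a luc animal. The lucOS libraries held 5501 T cells to be searched and the luc libraries 2104, so a match was easier to find in lucOS.

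The same TRA residues led large clones of more than 1 animal in 6 cases, covering 19 large clones and 465 T cells, all in lucOS animals. The lucOS libraries held 127 of all 140 large clones, and the 13 luc ones lay in 4 animals, so such cases were easier to find in lucOS. A clone large in both lucOS sgp53 replicates 3 and 4 counts in each. TRAV10 with TRAJ16 led clones of 97, 51, 51 and 8 T cells in 3 animals. Those of 97, 51 and 51 are the TRBV14 and TRBJ2-7 clones printed above, and that of 8, in lucOS NICD female 3, joined TRBV14 to TRBJ2-1. This TRA was found in 190 T cells of 4 lucOS animals and in 0 of the 1621 luc T cells with a TRA. Counting T cells 1 by 1, that allows a share of up to 0.185%. TRAV14 with TRAJ6 led 6 large clones in 3 animals, 5 of them of TRBV12-2+TRBV13-2 with TRBJ2-7 and 1 of TRBV5 with TRBJ2-5, and was found in 91 T cells of 6 lucOS animals. TRAV3 with TRAJ49 led clones of 60 and 5 T cells, TRAV4 with TRAJ17 clones of 20 and 5, and TRAV3 with TRAJ7 clones of 10 and 7 of TRBV17 and TRBJ2-7. TRAV8 with TRAJ30 led clones of 43, 10 and 8 T cells and was the only one of the 6 also seen in a luc T cell.

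Counted by residues, the 140 large clones were 119 TRB receptors, and 18 of these were written with 2 or more base sequences. In 7, at least 2 of the base sequences were large, and in 5 they were large in more than 1 animal. The TRBV12-2+TRBV13-2 and TRBJ2-5 receptor of the paired lucOS sgp53 libraries had 204 T cells. Its sequences of 44 and 9 T cells in replicate 3 were both led by TRAV14N-3 with TRAJ22, while that of 35 was led by TRAV8D-2 with TRAJ39. The receptor large in 3 lucOS sgp53 animals, 95 T cells, had a different leading TRA in each, TRAV9-2 with TRAJ27, TRAV9-4 with TRAJ45 and TRAV8N-2 with TRAJ7.

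The pair of libraries from 1 lucOS sgp53 animal allowed large clones to be followed between samples. Of the 21 large clones of replicate 3, 18 were found in replicate 4 (85.7%, 95% Wilson interval 65.4 to 95.02%), and all 12 of replicate 4 were found in replicate 3 (interval 75.8 to 100%). For clones of 2 to 4 T cells the shares were 53.1 and 70%, and for single T cells 7.36 and 11.04%. A larger clone is more easily found again whatever its receptor, so these shares describe sampling as well as overlap. In all 20 clonotypes large in either library and with a TRA in both, a TRA was shared.

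Of 25 clonotypes large in either library, 8 were large in both. The TRBV14 and TRBJ2-7 clone had 51 T cells in each, 7.22 and 7.92% of T cells. In 6 the 95% Wilson intervals of the shares did not overlap, which covers counting error only and is no test of the nodules. The TRBV12-2+TRBV13-2 and TRBJ2-5 clones of 44, 35 and 9 T cells in replicate 3 had 2, 74 and 40 in replicate 4, so that sequences of 1 CDR3 protein lay on either side of the line of equal shares. The TRBV29 and TRBJ1-4 clone had 23 and 2 T cells, and a TRBV12-2+TRBV13-2 and TRBJ2-7 clone had 2 and 27. A further TRBV12-2+TRBV13-2 and TRBJ2-5 clone, the last of the 6, had 10 and 29. The TRBV12-1 and TRBJ2-2 clone had 25 and 14, and its intervals overlapped.

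**Figure D5:**
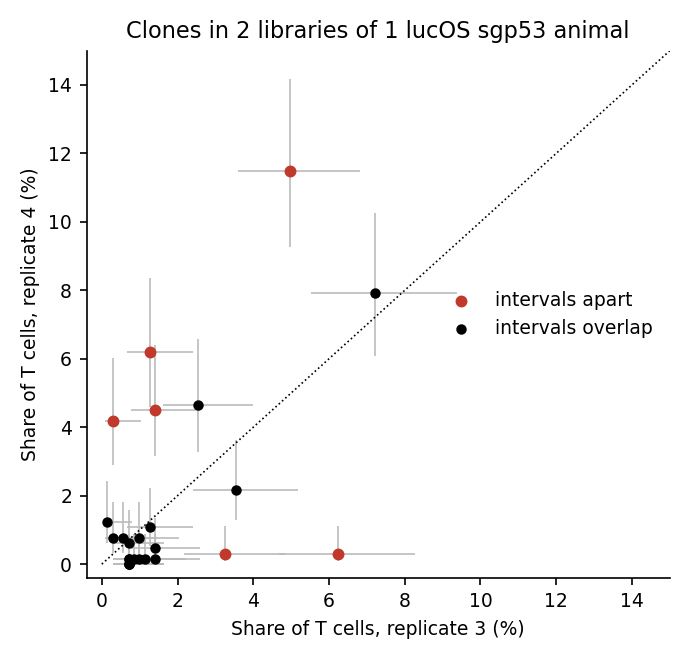
Each point is 1 of the 25 clonotypes large in replicate 3 or 4 of lucOS sgp53, with its percent of T cells in each library, 95% Wilson intervals in grey, and a dotted line of equal shares. Red marks the 6 clonotypes whose intervals do not overlap, such as that at 4.96 and 11.5%.

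At the edge of the size rule, 31 clones had 5 T cells and 37 had 4. Their CDR3s averaged 13.3 and 13.2 residues, their median TRB UMIs were 11 in both, and a TRA was found in 83.2 and 77.7% of T cells. CDR3s of 11 residues or fewer made up 16.1% of the clones of 5 and 24.3% of the clones of 4. Of the clones of 5, 28 were in lucOS libraries and 2 were found base for base in another animal. Of the clones of 4, 29 and 5 were. Clones of 20 or more averaged 12.5 residues, and 15 of 35 had 11 or fewer.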

How the data were processed

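The 15 TCR libraries were used, and the 26 bulk and 15 gene expression libraries were not analysed here. Per the labels' protocols, cells were loaded on the 10x Genomics 5′ assay. The authors deposited contig tables with counts of UMIs and reads per assembled contig. Per the submitters' processing notes, the tools were Cell Ranger and Seurat and the build was mm10, but what each did, and its version, is not stated there. PCR reads were not used, and intervals cover counting error only.

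Barcodes called cells with a productive, high-confidence TRB contig were T cells. Ties in UMIs went to the contig with more reads. Barcodes with at least 2 TRB or at least 3 TRA, which may be doublets, were kept and left out in an alternative. CDR3 lengths include both conserved ends. V and J ends were the runs shared by at least 50% of CDR3s with the same gene, for genes with at least 20 clonotypes. Shares in large clones used the hypergeometric expectation at 151 T cells. Genotypes were compared by two-sided exact permutation over animals, with labels permuted within strata. Large and smaller clones were compared within library by two-sided exact sign-flip permutation over the animals with a large clone, and the libraries of 1 animal were averaged. P-values were adjusted by Benjamini-Hochberg over 4 genotype comparisons, 6 paired measures, 20 TRBV entries and 12 TRBJ genes. The paired measures split by luc and lucOS were added after seeing the data. Clones named were the largest of each library, those of 20 or more T cells, those recurring in another animal or in both libraries of 1 animal, and sets with a shared TRA or shared CDR3 residues, the last 2 kinds chosen after their values were seen. Genes named were the 5 with the most large clones and those called. The members and lists were chosen with earlier results of these data known. Segment positions came from RefSeq GRCm38.p6, where 32 of 32 segment names matched. Scripts were tested on simulated data. Python 3.11.15, numpy 2.4.6, pandas 2.3.3, scipy 1.17.1 and matplotlib 3.10.9 were used.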

Additional observations from a re-analysis of the deposited data

Results flagged for a closer look

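Barcodes not called cells also carried TRB chains of large clones. In the lucOS libraries 176 of 327 such barcodes with a productive, high-confidence TRB (53.8%, 95% Wilson interval 48.4 to 59.2%) had the V gene, J gene and CDR3 bases of a large clone of their own library, against 38.4% of lucOS T cells. In the luc libraries 9 of 150 did (6%, interval 3.19 to 11.01%), against 6.51% of luc T cells. The luc value rests mostly on luc sgp53 female 2, with 2.15% of 93 barcodes. In luc sgp53 female 1 the shares were 28.6% of 14 barcodes and 18.2% of T cells, and in female 3 they were 15.8% of 19 and 4.34%, higher among the barcodes as in the lucOS total. By library the lucOS share ran from 0% of 21 barcodes in lucOS NICD female 2 and 3.92% of 51 in female 3 to 84.6% of 52 in male 1. These barcodes are outside the T cells described above, and the difference between lucOS and luc was not tested.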

How the results depend on the processing

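Each of the 12 comparisons was repeated with other settings, and a result counts as past its threshold at an adjusted p under 0.05. Genotype groups could not be paired with each other, because the replicate numbers name libraries in accession order and tie none across groups. When large meant 10 or more T cells, the antigen difference was 12.2 points, the male difference was -2.73 points, the junction difference -0.63 bases, and 11 TRBV entries and 3 TRBJ genes were called. Without barcodes of 2 or more TRB or 3 or more TRA, 3 TRBJ genes were called. With clonotypes defined by residues, CDR3 length (-0.68), the TRA share (6.95 points) and recurrence in another animal (16.99 points) passed, the junction difference was -0.059 bases, and 3 TRBV entries were called. Added after seeing the data, TRBV12-2+TRBV13-2 and TRBV13-2 taken as 1 gene gave 2 TRBJ genes, and animals with at least 7 large clones gave 0 TRBV entries and 0 TRBJ genes, with 3 and 1 at an unadjusted p under 0.05 by the exact sign-flip permutation test. Thinned to the smallest library of 49 T cells, the antigen difference was 8.07, the NICD difference was 1.03 and the male difference -4.66 points, and without thinning the antigen difference, 26.6 points, passed. The cause of these shifts was not tested. Over the animals left out in turn, ranges were 18.2 to 24.9 points for antigen, -10.1 to -3.50 for NICD, -8.11 to 18.6 for male, -10.9 to 2.36 for the difference of antigen differences, -0.68 to -0.48 residues, -0.082 to 0.52 junction bases, 4.17 to 7.45 points for the TRA share, 1.59 to 4.09 for TRA agreement, 3.63 to 8.26 for recurrence, 5 to 7 UMIs, 4 to 6 TRBV entries and 1 to 3 TRBJ genes. The sign of the difference of antigen differences turned without lucOS NICD female 2 (2.36) and lucOS sgp53 female 2 (1.86). In libraries with 77 and 49 T cells a large clone needs a large share, which limits what luc NICD can show.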
